A study of Macaca mulatta with 10 samples.

Results

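The mitochondrial respiratory chain was followed here through 80 nuclear genes, taken from the 26813 loci measured in the testes of 10 juvenile male rhesus macaques. A locus was included when its name in the deposited count table was a single symbol beginning with NDUF, UQCR, ATP5 or COX4 to COX8, or was SDHA, SDHB, SDHC or SDHD, and where a symbol had several loci the one with the highest mean count was kept. The rule matched 81 loci, of which the 1 left aside is a second locus named SDHD. By their known roles the genes fall into 37 of complex I, 4 of complex II, 5 of complex III, 12 of complex IV, 14 of complex V and 8 assembly factors. Subunits listed only under an identifier, such as the Rieske iron-sulfur protein UQCRFS1, and subunits joined to a neighbouring gene, such as ATP5D, fall outside the rule and are described separately.

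The respiratory chain sits in the inner mitochondrial membrane and passes electrons from NADH (complex I) and succinate (complex II) through ubiquinone, complex III and cytochrome c to oxygen (complex IV). Complexes I, III and IV pump protons as they do so, and the ATP synthase, complex V, uses the resulting gradient to make ATP. A few core subunits are encoded in mitochondrial DNA, and all others are nuclear genes whose products are imported. In the testis, mitochondria of Leydig cells also hold the first enzyme of steroid synthesis, and several complex IV subunits have isoforms restricted to testis or muscle.

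All animals were wild type. The vehicle group was TP07, aged 24 months, TP09 (14 months) and TP11 (15 months). Follicle-stimulating and luteinising hormone (gonadotropin) was given in pulses for 48 h to TP08 (22 months), TP10 (14 months) and TP12 (15 months). For 96 h it was given to TP15, TP16, TP17 and TP18, all aged 14 months. How long vehicle was infused is not given in the labels. RNA came from the right testis, which was cut into pieces and frozen, and total RNA was sequenced from strand-specific libraries. Each library is 1 animal, so the spread behind every test is between animals. The animal numbers of the 96 h group follow those of the other groups, so any difference between the sets of animals by number cannot be told apart from the 96 h infusion.

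Levels are given as CPM, the count of a locus scaled to a fixed library total, with library sizes adjusted by the trimmed mean of M values (TMM). Library totals ran from 21824233 to 30375928 counts, and no pair of libraries of 1 group agreed within sampling noise, since the chi-square per degree of freedom over loci ran from 15.8 to 49.6. The lowest value of any member in any library was 1.16 CPM (NDUFA4L2), so all 80 members were counted in all libraries. Values of single animals are listed in the order TP07, TP09 and TP11 for vehicle, TP08, TP10 and TP12 for 48 h, and TP15 to TP18 for 96 h, and log2 fold changes come with their standard error (SE). Adjusted p-values are from edgeR's quasi-likelihood test on the counts of all 10 libraries, adjusted by the Benjamini-Hochberg method over all 26813 loci, and a gene is called higher or lower where the adjusted p is under 0.05. Both gonadotropin groups were set against the same 3 vehicle animals, so the 48 h and 96 h comparisons are not independent of each other. Since whole testis was sequenced, fewer cells of a type and less RNA per cell cannot be told apart.

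After 48 h of gonadotropin, 60 of the 80 genes rose and none passed the test as lower, while 8.53% of all loci were called higher and 3.67% lower. At an unadjusted p under 0.05 there were 69 higher and 1 lower, beside 4082 higher and 3407 lower of all 26813 loci. DESeq2, limma voom and edgeR's exact test also called none lower. The median log2 fold change of the 80 genes was 0.63, a 1.55-fold difference, beside -0.07 for all loci. In 70 genes every 48 h animal lay above every vehicle animal, which was so for 18.1% of all loci. After 96 h, 46 genes rose and 1, COX7B2, fell, beside 10.6% of all loci called higher and 6.89% called lower. The median was then 0.38, a 1.30-fold difference, beside -0.01 for all loci, and 59 genes had every 96 h animal above every vehicle animal, beside 15.9% of all loci. The authors' deposited table, labelled as edgeR's exact test, has 54 of the 80 genes higher and 0 lower at 48 h. At 96 h it has 30 higher and 1 lower. The exact test run here on the deposited counts called 60 higher and 0 lower at 48 h, and 44 higher and 1 lower at 96 h. Why the authors' calls were fewer was not tested.

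Added over all 80 genes, the CPM came to 4750, 4281 and 4649 in vehicle, 7605, 6621 and 6844 at 48 h, and 5816, 5657, 6202 and 5975 at 96 h. The 3 groups did not overlap, with the 96 h animals between the others. Group means were 4560 ± 247 (SD, n = 3), 7023 ± 516 (n = 3) and 5913 ± 232 (n = 4), so the 48 h mean was 154.0% and the 96 h mean 129.7% of vehicle. The 22-month-old animal TP08 had the highest sum of the 48 h group, 166.8% of the vehicle mean, and its ratio to the vehicle mean over the 80 genes had a median of 0.73 on the log2 scale, beside 0.55 in TP10 and 0.57 in TP12. Each 48 h animal exceeded the highest vehicle animal in 72 or 73 of the 80 genes, and each 96 h animal in 62 to 69. The matching share of all loci was not counted for single animals. Without the animals over 20 months old, TP07 and TP08, the 48 h count of called genes dropped to 37 (median log2 fold change 0.59), and the 96 h count to 32 with a median of 0.39. Without TP09 or TP11 the 96 h count was 28 or 29, with upper-quartile scaling it was 27, and in every setting tried more members were called higher than lower.

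**Figure D1:**
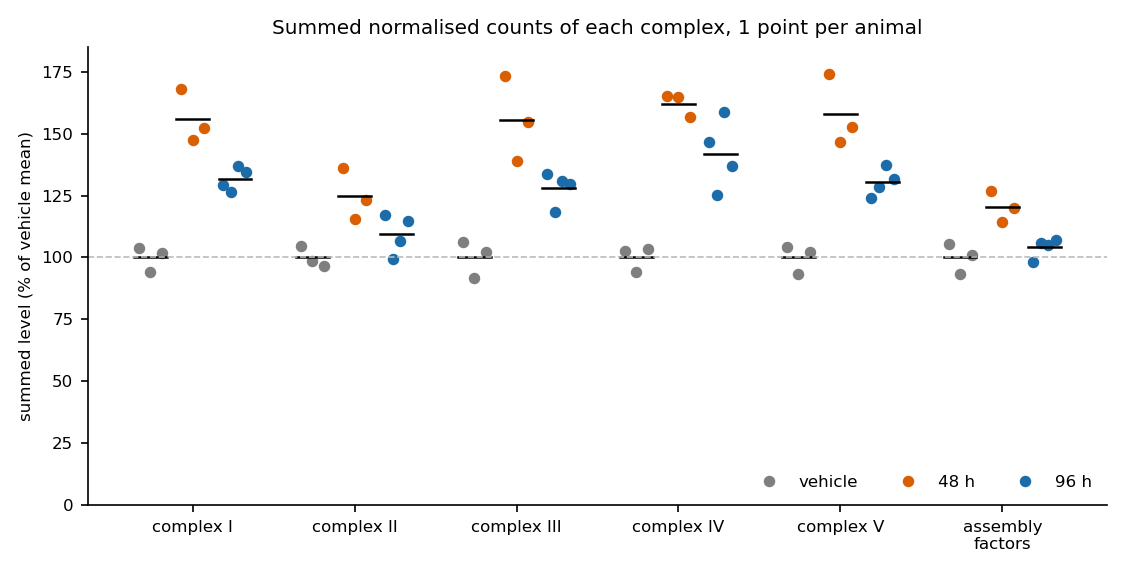
Summed CPM of the members of each complex (y axis, as % of the vehicle mean of that complex), with 1 point per animal and a bar at the group mean, for vehicle (grey), 48 h (orange) and 96 h (blue). In complexes I, III, IV and V the 48 h animals lie at 138.9% or more of the vehicle mean and all 96 h animals lie above all vehicle animals, while complex II and the assembly factors differ less.

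By complex, the sums at 48 h were 156.0% of vehicle for complex I, 124.9% for complex II, 155.6% for complex III, 162.1% for complex IV, 157.8% for complex V and 120.4% for the assembly factors. At 96 h the same sums were 131.8%, 109.4%, 128.2%, 141.9%, 130.3% and 104.1% of vehicle. Complex II and the assembly factors thus had the smallest differences at both times. Their members have exonic lengths of 1024 to 13796 nucleotides, beside a median of 1001 for all 80 genes. Whether length, described below, plays a part in these smaller differences was not tested. In complex II the sums at 96 h were 283, 240.0, 257 and 277 CPM and overlapped those of vehicle (253, 239 and 234 CPM).

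**Figure D2:**
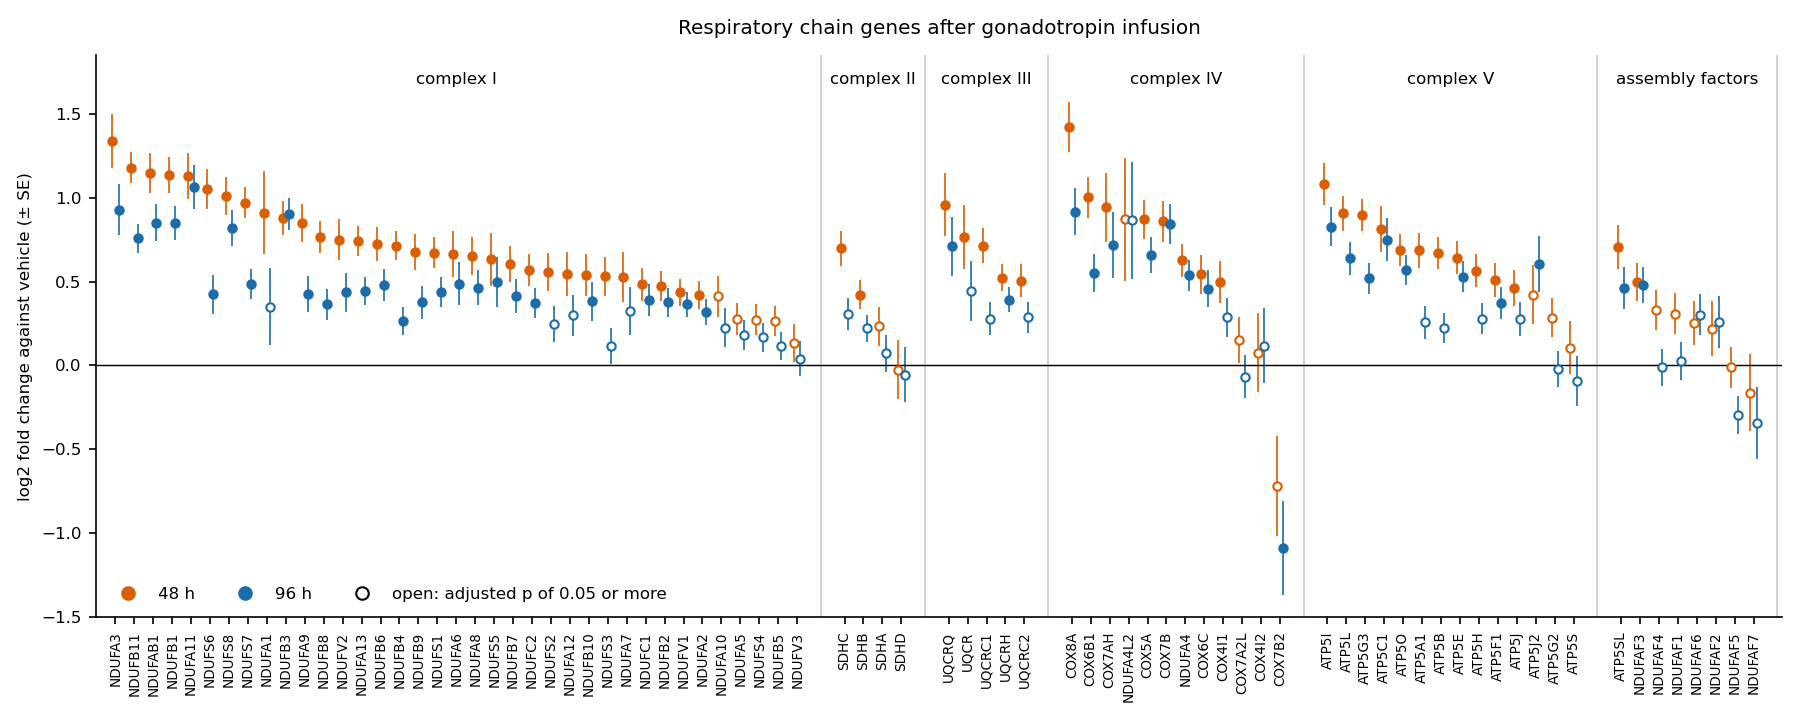
The log2 fold change against vehicle (y axis, with its SE) of each of the 80 genes (x axis, grouped by complex and ordered by the 48 h value), at 48 h (orange) and 96 h (blue), with filled points for an adjusted p under 0.05 in edgeR's quasi-likelihood test. Nearly all points of complexes I, III and V lie above 0, and COX7B2 alone is called lower, at 96 h.

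Complex I, which oxidises NADH, had 32 of its 37 members higher at 48 h and 27 at 96 h, and all 37 had a positive fold change at both times. The median log2 fold change was 0.66 at 48 h and 0.39 at 96 h. All 7 core subunits of the matrix arm, which carry the flavin and the iron-sulfur clusters, rose at 48 h, with log2 fold changes from 0.44 (NDUFV1, which binds NADH and FMN) to 1.01 (NDUFS8). Counting core and accessory subunits together, 13 of 16 members of the matrix arm and 18 of 20 of the membrane arm rose at 48 h, and 9 of 16 and 17 of 20 at 96 h. A difference between the arms was not tested.

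NDUFS7, the core subunit that holds the last iron-sulfur cluster before ubiquinone, lies on chromosome 19 (1179273 to 1191418, rheMac8) in a gene model of 8 exons. Its level was 18.2, 20.6 and 19.0 CPM in vehicle, 39.8, 36.5 and 37.2 CPM at 48 h, and 27.0, 26.5, 26.7 and 27.9 CPM at 96 h. The 3 groups did not overlap, and the 96 h animals lay close together between the others. The log2 fold change was 0.97 ± 0.094 at adjusted p = 0.000414 at 48 h and 0.49 ± 0.088 at adjusted p = 0.00512 at 96 h. With exonic length corrected for, the 96 h difference of NDUFS7 had an adjusted p of 0.051.

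NDUFS6, an accessory subunit of the matrix arm, had 15.5, 15.1 and 17.5 CPM in vehicle, 35.5, 31.1 and 33.1 CPM at 48 h, and 18.9, 21.4, 21.7 and 24.0 CPM at 96 h. Its 48 h values began at 31.1 CPM and its 96 h values ended at 24.0 CPM, still above all vehicle values. The log2 fold change was 1.05 ± 0.12 at adjusted p = 0.000826 at 48 h and 0.42 ± 0.11 at adjusted p = 0.0281 at 96 h, and the 96 h call held in 12 of the 23 alternatives tried, a stricter threshold among them. NDUFAB1, the mitochondrial acyl carrier protein, which is also a complex I subunit, had 26.6, 29.3 and 34.1 CPM in vehicle, 76.4, 59.6 and 63.7 CPM at 48 h, and 52.6, 53.9, 56.3 and 53.6 CPM at 96 h. Again all 3 groups were separate, with log2 fold changes of 1.15 ± 0.12 at adjusted p = 0.000502 and 0.85 ± 0.11 at adjusted p = 0.000954.

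Among the accessory subunits of the membrane arm, NDUFB11, an X-linked gene, stood at 28.2, 26.0 and 26.1 CPM in vehicle, 64.5, 60.4 and 57.0 CPM at 48 h, and 48.0, 43.8, 43.0 and 46.2 CPM at 96 h. The lowest 48 h animal was above the highest vehicle animal by a wide margin, with a log2 fold change of 1.18 ± 0.09 at adjusted p = 0.000148. The 96 h animals lay between, at 0.76 ± 0.085 at adjusted p = 0.000442. NDUFB1 had 40.3, 41.1 and 38.1 CPM in vehicle, 96.2, 80.7 and 85.8 CPM at 48 h, and 67.6, 69.9, 83.5 and 66.3 CPM at 96 h. Here the treated groups overlapped each other through TP17 but not vehicle (1.14 ± 0.11 at adjusted p = 0.000367 at 48 h and 0.85 ± 0.10 at adjusted p = 0.000577 at 96 h). NDUFB4 had 55.7, 52.4 and 53.8 CPM in vehicle, 91.0, 83.1 and 91.7 CPM at 48 h, and 63.8, 59.7, 64.5 and 71.8 CPM at 96 h. Its 48 h log2 fold change was 0.72 ± 0.089 at adjusted p = 0.00105, and at 96 h it was 0.27 ± 0.083 at adjusted p = 0.0481, a call that held in 4 of the 23 alternatives.

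In NDUFB3 and NDUFA11, as in NDUFB1, the values at 48 h and 96 h overlapped. NDUFB3 had 18.5, 17.9 and 18.3 CPM in vehicle, 34.2, 33.1 and 33.3 CPM at 48 h, and 34.3, 30.2, 38.0 and 34.1 CPM at 96 h. Its log2 fold changes were 0.88 ± 0.10 at adjusted p = 0.000842 and 0.90 ± 0.10 at adjusted p = 0.000356. NDUFA11 had 23.6, 24.2 and 25.6 CPM in vehicle, 49.7, 50.9 and 60.3 CPM at 48 h, and 54.0, 41.3, 60.4 and 48.7 CPM at 96 h. Its fold changes on the same scale were 1.13 ± 0.14 at adjusted p = 0.000992 and 1.06 ± 0.13 at adjusted p = 0.000686, the largest rise of the complex at 96 h. The largest rise at 48 h in complex I was that of NDUFA3, 2.53-fold, although a copy of NDUFA3 elsewhere in the genome held counts equal to 23.7% of its own. Members that did not pass at 48 h were NDUFA10 (log2 fold change 0.41), NDUFA5 (0.28), NDUFS4 (0.27), NDUFB5 (0.27) and NDUFV3 (0.13). NDUFA1, another X-linked subunit, had vehicle values within 30.3 to 30.8 CPM and 48 h values of 55.0 to 60.0 CPM, whereas at 96 h animal TP17 stood at 20.8 CPM, below vehicle, and the others at 39.9 to 48.9 CPM. The 48 h call of NDUFA1 held in 12 of the 23 alternatives.

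In complex II, the succinate dehydrogenase of the citric acid cycle, 2 of 4 subunits rose at 48 h and none passed the test at 96 h. At an unadjusted p under 0.05 there were 2 higher at 96 h, beside 4859 of all 26813 loci. DESeq2 called SDHB and SDHC higher at 96 h (adjusted p = 0.032 and 0.013). SDHC also passed at 96 h with RLE scaling (adjusted p = 0.043) and with age as a covariate (0.042). It passed too with the loci of each symbol summed (0.049) and without TP16 (0.031). SDHC, a membrane anchor, had 25.8, 23.8 and 22.8 CPM in vehicle, 42.0, 37.3 and 38.2 CPM at 48 h, and 30.1, 26.7, 31.5 and 31.1 CPM at 96 h. The 48 h animals were separate from both other groups (0.70 ± 0.10 at adjusted p = 0.00221), and the 96 h animals were above vehicle without passing (0.31 ± 0.10 at adjusted p = 0.0508). SDHB, the iron-sulfur subunit, had 65.6, 66.5 and 67.6 CPM in vehicle, 98.9, 84.9 and 83.9 CPM at 48 h, and 75.2, 75.2, 80.7 and 79.2 CPM at 96 h. Its values at 48 h were likewise the highest, with 0.42 ± 0.085 at adjusted p = 0.00923 at 48 h and 0.22 ± 0.079 at adjusted p = 0.0763 at 96 h. The 48 h call of SDHB was lost with exonic length corrected for (adjusted p = 0.239) and without TP07 and TP08 (adjusted p = 0.104).

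SDHA, the flavoprotein that oxidises succinate, had 139, 127 and 125 CPM in vehicle, 164, 141 and 153 CPM at 48 h, and 156, 116, 125 and 149.9 CPM at 96 h. The 48 h animals were above vehicle by a small margin and the 96 h animals overlapped it, with log2 fold changes of 0.23 ± 0.12 at adjusted p = 0.223 and 0.073 ± 0.11 at adjusted p = 0.672. SDHA has a copy whose counts equal 16.5% of its own, so the locus of some of its reads is uncertain. SDHD, the other membrane anchor (chromosome 14, 104977437 to 104987316), had 22.5, 21.6 and 18.4 CPM in vehicle, 23.5, 15.4 and 22.5 CPM at 48 h, and 21.9, 21.6, 19.9 and 16.6 CPM at 96 h. All groups overlapped, and the log2 fold changes were -0.025 ± 0.18 at adjusted p = 0.942 and -0.056 ± 0.16 at adjusted p = 0.835. The second SDHD locus, a single exon on chromosome 13 (19506415 to 19507681), had 0.760, 0.719 and 6.04 CPM in vehicle and 6.95 to 14.8 CPM in the treated animals, without passing the test (adjusted p = 0.108 at 48 h and 0.0921 at 96 h). With the counts of both SDHD loci added, the log2 fold change of SDHD was 0.38 at 48 h (adjusted p = 0.018) and 0.32 at 96 h (adjusted p = 0.024). The SDHD result therefore depends on how reads were assigned between the loci.

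All 5 members of complex III, the cytochrome bc1 complex, rose at 48 h, and 2 of them, UQCRH and UQCRQ, at 96 h. UQCRC1, a core protein, had 95.6, 86.3 and 87.9 CPM in vehicle, 169.7, 128 and 144 CPM at 48 h, and 108, 102, 109.7 and 117 CPM at 96 h. Values at 96 h lay just above vehicle and below all 48 h values, with log2 fold changes of 0.71 ± 0.10 at adjusted p = 0.00213 at 48 h and 0.28 ± 0.10 at adjusted p = 0.0719 at 96 h. UQCRC2, the other core protein, had 136, 113 and 132 CPM in vehicle, 196, 162 and 181 CPM at 48 h, and 149.7, 149.7, 156 and 163 CPM at 96 h. The fold changes of UQCRC2 were 0.50 ± 0.10 at adjusted p = 0.008 and 0.29 ± 0.092 at adjusted p = 0.0529. In UQCRC1 and UQCRC2 the 96 h difference did not pass, but DESeq2 (adjusted p = 0.043 and 0.023), age as a covariate (0.025 for both) and age class as a block (0.048 and 0.022) brought both past the threshold. The 48 h call of UQCRC2 was lost without the animals over 20 months old (adjusted p = 0.057) and with exonic length corrected for (0.065).

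UQCRH, the hinge protein that contacts cytochrome c1, had 48.8, 47.7 and 52.8 CPM in vehicle, 72.9, 71.4 and 70.4 CPM at 48 h, and 68.1, 61.7, 65.7 and 65.7 CPM at 96 h. Its groups were all separate and the animals within a group close together, with log2 fold changes of 0.52 ± 0.079 at adjusted p = 0.00234 and 0.39 ± 0.074 at adjusted p = 0.00613. UQCRQ, a small accessory subunit, had 31.2, 25.2 and 27.0 CPM in vehicle, 65.9, 40.6 and 55.6 CPM at 48 h, and 53.3, 42.6, 50.3 and 36.0 CPM at 96 h. The spread within the treated groups was wider, and TP10 and TP18 were the lowest of their groups while still above all vehicle animals (0.96 ± 0.19 at adjusted p = 0.00853 and 0.71 ± 0.18 at adjusted p = 0.0214). Without TP09, TP11 or TP17 the 96 h call of UQCRQ was lost, at adjusted p-values of 0.071, 0.074 and 0.057. Its 48 h call was lost without the animals over 20 months old (adjusted p = 0.058), and the 96 h call of UQCRH with exonic length corrected for (0.084). UQCR, an older symbol of UQCR11, rose at 48 h (0.77 ± 0.19 at adjusted p = 0.0237), a call that held in 16 of the 23 alternatives.

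Complex IV, cytochrome c oxidase, had 8 of 12 members higher at 48 h, 7 higher and 1 lower at 96 h, and medians of 0.74 and 0.54. COX8A, the widely expressed isoform of subunit 8, lies on chromosome 14 (10563324 to 10566015) and showed the largest rise of all 80 genes at 48 h. Its level was 35.3, 24.9 and 37.7 CPM in vehicle, 92.0, 85.6 and 85.3 CPM at 48 h, and 67.0, 59.1, 66.8 and 53.8 CPM at 96 h. The lowest 48 h animal stood at 85.3 CPM and the highest vehicle animal at 37.7 CPM. The group difference was 2.68-fold at 48 h (1.42 ± 0.15 at adjusted p = 0.000502). The 96 h animals lay between (0.92 ± 0.14 at adjusted p = 0.00209). COX6B1, which faces the intermembrane space, had 45.0, 39.2 and 43.3 CPM in vehicle, 94.2, 84.8 and 76.6 CPM at 48 h, and 61.7, 52.5, 71.2 and 63.6 CPM at 96 h. It followed the same order of groups, with log2 fold changes of 1.00 ± 0.12 at adjusted p = 0.000973 and 0.55 ± 0.11 at adjusted p = 0.00962.

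COX5A, a subunit on the matrix side, had 25.1, 21.3 and 18.9 CPM in vehicle, 39.6, 42.6 and 37.3 CPM at 48 h, and 33.3, 34.1, 33.8 and 36.3 CPM at 96 h. The fold changes of COX5A were 0.87 ± 0.12 at adjusted p = 0.00133 and 0.66 ± 0.11 at adjusted p = 0.00319. Values of COX5A at 96 h were within 33.3 to 36.3 CPM, all below those at 48 h. NDUFA4, named for complex I but now assigned to complex IV, had 49.4, 47.9 and 54.9 CPM in vehicle, 84.8, 80.3 and 70.2 CPM at 48 h, and 76.7, 71.8, 78.0 and 68.6 CPM at 96 h. The treated groups overlapped each other and not vehicle, with 0.63 ± 0.10 at adjusted p = 0.00297 and 0.54 ± 0.093 at adjusted p = 0.00383, and a copy of NDUFA4 held counts equal to 37.5% of its own. COX6C, a further small subunit, had the highest level per exonic kilobase of complex IV in vehicle, 219.5 CPM per kb. It rose at both times (0.54 ± 0.12 at adjusted p = 0.013 and 0.46 ± 0.11 at adjusted p = 0.0188). The calls of COX6C held in 20 and 16 of the 23 alternatives.

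Isoforms of the same subunit were read side by side, and differences between isoforms were not tested. COX7B, the ubiquitous form (X chromosome, 71705087 to 71711452), had 75.6, 80.1 and 78.9 CPM in vehicle, 145, 152 and 129 CPM at 48 h, and 138, 124, 173 and 127 CPM at 96 h. Treated animals began at 124 CPM and vehicle animals ended at 80.1 CPM, with log2 fold changes of 0.86 ± 0.12 at adjusted p = 0.00194 and 0.84 ± 0.12 at adjusted p = 0.0013. COX7B2, a paralogue known in humans for expression in testis (chromosome 5, 46705107 to 46874190), had 8.55, 12.1 and 11.5 CPM in vehicle, 7.52, 5.63 and 6.41 CPM at 48 h, and 6.58, 4.56, 2.68 and 6.31 CPM at 96 h. All treated animals lay below all vehicle animals, and TP17 was the lowest. The log2 fold change was -0.72 ± 0.30 at adjusted p = 0.144 at 48 h and -1.09 ± 0.28 at adjusted p = 0.0237 at 96 h, so that only the 96 h fall passed the test. That call was lost without TP09 (adjusted p = 0.071), without TP11 (0.077), without both animals over 20 months (0.0502) and with age class as a block (0.118).

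COX4I1, the ubiquitous form of subunit 4, had 131, 95.1 and 116 CPM in vehicle, 159, 149.5 and 174 CPM at 48 h, and 145, 119.6, 150.5 and 141 CPM at 96 h. Vehicle animal TP07 lay above 96 h animal TP16, and the log2 fold changes were 0.50 ± 0.13 at adjusted p = 0.0261 and 0.29 ± 0.12 at adjusted p = 0.112. The 48 h call of COX4I1 was lost without TP08, TP09, TP11 or TP12 (adjusted p-values from 0.069 to 0.091), without both animals over 20 months (0.0625), with upper-quartile scaling (0.065) and with exonic length corrected for (0.186). COX4I2, its tissue-restricted paralogue, had 4.10, 3.43 and 6.27 CPM in vehicle, 5.53, 4.33 and 4.69 CPM at 48 h, and 4.84, 4.92, 5.11 and 5.13 CPM at 96 h. No group stood apart in COX4I2, at 0.075 ± 0.24 at adjusted p = 0.865 and 0.12 ± 0.22 at adjusted p = 0.736.

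NDUFA4L2, a hypoxia-inducible relative of NDUFA4, was the lowest of all members, at 1.42, 1.16 and 1.81 CPM in vehicle, 1.92, 4.18 and 1.97 CPM at 48 h, and 3.82, 2.35, 2.63 and 1.92 CPM at 96 h. Every treated animal was above every vehicle animal, yet the difference did not pass at either time (0.87 ± 0.37 at adjusted p = 0.147 and 0.86 ± 0.35 at adjusted p = 0.108). COX7AH, an older symbol of the muscle isoform COX7A1, had 9.28, 12.2 and 11.017 CPM in vehicle, 19.9, 23.7 and 18.9 CPM at 48 h, and 21.4, 12.3, 20.6 and 17.2 CPM at 96 h. Its 96 h animal TP16 stood beside the highest vehicle animal and the rest at 17.2 CPM or more, with 0.94 ± 0.21 at adjusted p = 0.0138 and 0.72 ± 0.20 at adjusted p = 0.0293. The 96 h call of COX7AH held in 11 of the 23 alternatives and was lost without TP07, TP11, TP15 or TP17 (adjusted p-values from 0.065 to 0.110), with age class as a block (0.226) and with exonic length corrected for (0.068). Its 48 h call was lost without the animals over 20 months old (0.111). COX7A2L, which helps to join complexes III and IV into supercomplexes, is represented here by a single-exon locus on an unplaced scaffold and had 39.8, 32.8 and 33.6 CPM in vehicle, 38.3, 37.7 and 41.9 CPM at 48 h, and 37.3, 27.0, 33.6 and 37.5 CPM at 96 h. Both treated groups of COX7A2L overlapped vehicle, and the 96 h values ended just below the lowest 48 h value (0.15 ± 0.14 at adjusted p = 0.498 and -0.066 ± 0.13 at adjusted p = 0.742). A further copy held counts equal to 37.1% of its own.

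**Figure D3:**
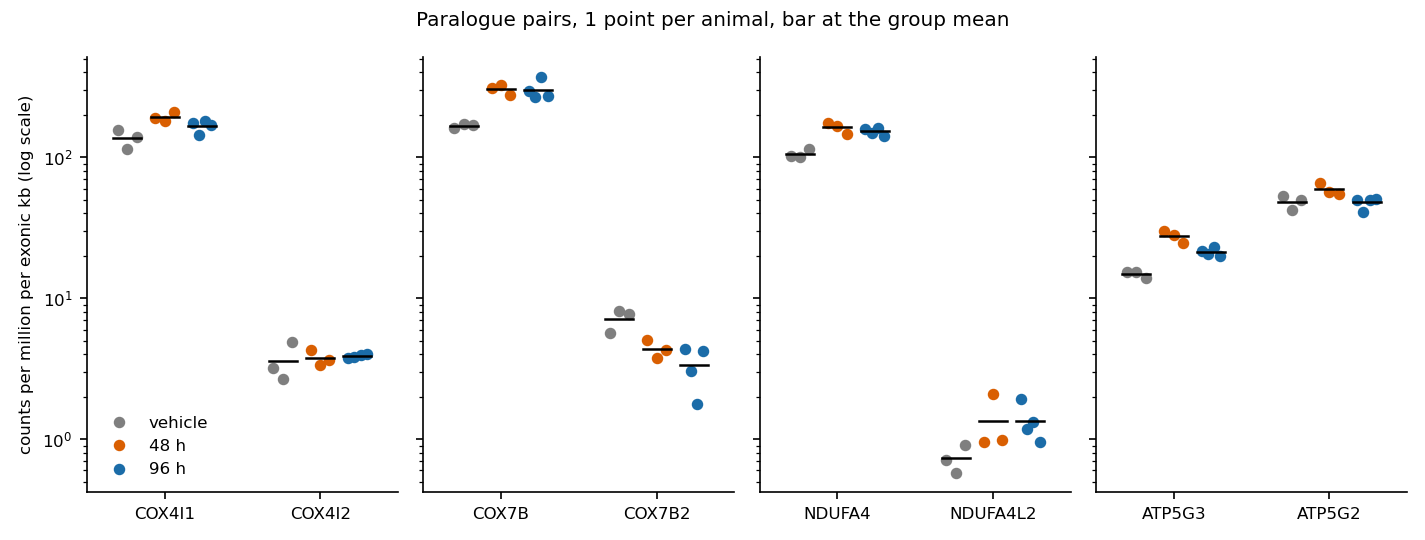
Levels in CPM per exonic kilobase (y axis, log scale) of 4 pairs of related genes (x axis), with 1 point per animal and a bar at the group mean, for vehicle (grey), 48 h (orange) and 96 h (blue). COX7B rises while COX7B2 is lower in all treated animals, and ATP5G3 lies below ATP5G2 in every group but differs more between groups.

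Per exonic kilobase, COX7B exceeded COX7B2 in all groups, with means of 168 against 7.16 CPM per kb in vehicle, 305 against 4.35 at 48 h and 302 against 3.36 at 96 h. COX4I1 likewise exceeded COX4I2, at 137 against 3.58 CPM per kb in vehicle. NDUFA4 exceeded NDUFA4L2, at 106 against 0.732 CPM per kb in vehicle. The widely expressed form was therefore the more abundant of each of these pairs, also where its paralogue differed in the other direction.

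Complex V, the ATP synthase, had 11 of 14 members higher at 48 h and 8 at 96 h, and medians of 0.66 and 0.45. ATP5B, the catalytic beta subunit of the F1 head, lies on chromosome 11 (55428705 to 55438462) and had 327, 283 and 301 CPM in vehicle, 541, 450.2 and 457 CPM at 48 h, and 337, 358, 360.0 and 364 CPM at 96 h. Vehicle and 96 h values were near each other without overlap, and 48 h values were above both (0.67 ± 0.10 at adjusted p = 0.00183 at 48 h and 0.22 ± 0.089 at adjusted p = 0.103 at 96 h). ATP5A1, the alpha subunit, behaved in the same way, at 0.69 ± 0.11 at adjusted p = 0.00279 and 0.26 ± 0.10 at adjusted p = 0.0947. With age as a covariate the 96 h difference of ATP5B passed (adjusted p = 0.032). ATP5C1, the gamma subunit of the central stalk, had 159, 183 and 171 CPM in vehicle, 351, 264 and 284 CPM at 48 h, and 239.5, 318, 325 and 268 CPM at 96 h. In contrast to the head, its values at 48 h and 96 h overlapped, and both differences passed (0.81 ± 0.14 at adjusted p = 0.00454 and 0.75 ± 0.13 at adjusted p = 0.00413). Without the animals over 20 months old the 48 h call of ATP5C1 was lost (adjusted p = 0.064). All 4 members of the peripheral stalk rose at 48 h and 2 of them at 96 h. ATP5O, which joins the stalk to the head, had 72.6, 69.6 and 71.0 CPM in vehicle, 127, 112 and 104 CPM at 48 h, and 104, 95.1, 113 and 110.3 CPM at 96 h. The fold changes of ATP5O were 0.69 ± 0.10 at adjusted p = 0.00164 and 0.57 ± 0.09 at adjusted p = 0.00245.

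ATP5G2 and ATP5G3 both encode the c subunit of the membrane ring, with the same mature protein, and the third gene, ATP5G1, is joined to UBE2Z in the table. ATP5G3 had 60.6, 60.9 and 54.7 CPM in vehicle, 119.5, 110.4 and 98.2 CPM at 48 h, and 85.4, 80.9, 91.5 and 78.9 CPM at 96 h. The 3 groups of ATP5G3 were separate, with 0.90 ± 0.10 at adjusted p = 0.000645 and 0.52 ± 0.091 at adjusted p = 0.00432. ATP5G2 had 115, 90.9 and 107 CPM in vehicle, 141, 122 and 118 CPM at 48 h, and 108, 88.1, 106 and 109 CPM at 96 h. Its 48 h animals were above vehicle by a small margin and its 96 h animals were not, and neither difference passed (0.29 ± 0.12 at adjusted p = 0.132 and -0.021 ± 0.11 at adjusted p = 0.911). Per exonic kilobase ATP5G2 was the higher of the pair, at 48.5 ± 5.62 against 14.9 ± 0.879 CPM per kb in vehicle (SD, n = 3) and 47.8 against 21.3 CPM per kb at 96 h. The length used covers all exons of the merged models, 2147 nucleotides for ATP5G2 and 3955 for ATP5G3. In CPM the vehicle means were nearer each other, at 104 and 58.7.

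Of the small membrane subunits, ATP5I (subunit e) had 31.2, 33.4 and 34.7 CPM in vehicle, 72.6, 70.8 and 67.2 CPM at 48 h, and 51.8, 51.8, 71.8 and 60.0 CPM at 96 h. All treated animals were above all vehicle animals (1.08 ± 0.12 at adjusted p = 0.000839 and 0.83 ± 0.12 at adjusted p = 0.00147). ATP5L (subunit g) had 41.0, 35.6 and 40.4 CPM in vehicle, 82.4, 65.2 and 72.0 CPM at 48 h, and 60.2, 58.4, 64.9 and 59.7 CPM at 96 h, again without overlap (0.91 ± 0.10 at adjusted p = 0.00081 and 0.64 ± 0.10 at adjusted p = 0.00209). ATP5J2 (subunit f) passed at 96 h (0.61 ± 0.17 at adjusted p = 0.0318) and not at 48 h (0.42 ± 0.18 at adjusted p = 0.146), where TP12 stood at 121 CPM and the other 48 h animals at 71.8 and 75.0 CPM. Its 96 h call held in 12 of the 23 alternatives. ATP5E, the epsilon subunit, had the highest level per exonic kilobase of all 80 genes in vehicle, 307 ± 25.9 CPM per kb. ATP5S had 18.4 to 26.6 CPM in vehicle and 17.6 to 27.0 CPM in the treated animals, with no group apart.

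Of the 8 assembly factors, proteins that help to build complex I without being part of it, 2 rose at 48 h and the same 2 at 96 h. These were NDUFAF3 (0.50 ± 0.11 at adjusted p = 0.0177 and 0.48 ± 0.11 at adjusted p = 0.0138) and ATP5SL, named for ATP synthase but known as the complex I assembly factor DMAC2 (0.71 ± 0.13 at adjusted p = 0.00688 and 0.46 ± 0.13 at adjusted p = 0.029). The calls at 48 h and 96 h held in 16 and 17 of the 23 alternatives for NDUFAF3 and in 22 and 12 for ATP5SL. NDUFAF5 and NDUFAF7 had negative values at both times, from -0.34 to -0.011 on the log2 scale, without passing. Outside the rule, 11 of 29 further assembly factors of the complexes rose and 1 fell at 48 h, and 8 rose and 1 fell at 96 h, with medians of 0.31 and 0.20. Those with the smallest p-values at 48 h were FOXRED1 (log2 fold change 0.55), TMEM126A (0.64) and COX17, a copper chaperone of complex IV (0.66). The one that fell was TTC19, a complex III factor (-0.43 at 48 h and -0.35 at 96 h).

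Set directly against 48 h, the 96 h group had 5 of the 80 genes lower and none higher, beside 0.25% of all loci called lower and 0.817% called higher. At an unadjusted p under 0.05 there were 34 lower and 0 higher, beside 2462 lower and 3152 higher of all 26813 loci. DESeq2 called 16 lower and 0 higher, and the authors' deposited table has 2 lower and 0 higher. The median log2 fold change was -0.21, beside 0.02 for all loci, and 75 of the 80 values were negative. Those called were NDUFS6 (-0.63 ± 0.11 at adjusted p = 0.0289), NDUFS7 (-0.49 ± 0.086 at adjusted p = 0.0294), NDUFB4 (-0.45 ± 0.082 at adjusted p = 0.0315), ATP5B (-0.44 ± 0.088 at adjusted p = 0.0408) and NDUFB11 (-0.42 ± 0.083 at adjusted p = 0.0389). In each of the 5, all 96 h animals lay below all 48 h animals and above all vehicle animals. Since the 5 were called on these same values, their lying below 48 h adds no support. In 34 of the 80 genes, these 5 among them, all 96 h animals lay below all 48 h animals. The share of all loci for this was not counted. None of the 5 calls held in all alternatives, and without TP08, TP10, TP12, TP15 or TP17 no member was called at all. No member was called either with age as a covariate, with age class as a block or with exonic length corrected for.

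Subunits outside the rule were read for comparison. Of the 8 listed under an identifier only, 6 rose at 48 h and 5 at 96 h, and their median was 0.59 and then 0.34 on the log2 scale. The largest difference among them was in COX7A2, the widely expressed isoform of subunit 7a, at 59.1 ± 2.18 CPM in vehicle, 118 ± 9.32 CPM at 48 h and 111 ± 11.9 CPM at 96 h (SD, n = 3, 3 and 4). COX8C, a testis isoform of subunit 8 represented by a single exon on an unplaced scaffold, had 6.25 ± 0.998, 5.50 ± 0.930 and 4.42 ± 1.19 CPM and did not pass (log2 fold change -0.18, adjusted p = 0.678 at 48 h, and -0.49, adjusted p = 0.167 at 96 h). The loci that join ATP5D with STK11 and ATP5G1 with UBE2Z both rose (log2 fold changes of 0.57 and 0.56 at 48 h), but their reads cannot be divided between the joined genes. The carriers CYC1 (cytochrome c1) and CYCS (cytochrome c) rose at both times, at 0.65 and 0.50 at 48 h and 0.38 and 0.40 at 96 h on the log2 scale.

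No locus of genes encoded in mitochondrial DNA passed the test in either direction. The locus that joins 11 of these genes had 27331, 27485 and 24148 CPM in vehicle, 26882, 13736 and 23972 CPM at 48 h, and 25245, 30572, 20968 and 23951 CPM at 96 h. TP10 had the lowest value by a wide margin and the other animals overlapped (log2 fold change -0.29, adjusted p = 0.442 at 48 h, and -0.064, adjusted p = 0.857 at 96 h). Reads of the joined locus cannot be divided between its genes, so its single subunits were not tested. CYTB and ND6, which have loci of their own, did not pass either (adjusted p from 0.555 to 0.888). Mitochondrial loci held 2.59% to 2.95% of all counts in vehicle, 1.37% to 2.69% at 48 h and 1.91% to 3.09% at 96 h. The 80 nuclear genes held 0.454% to 0.503%, 0.660% to 0.753% and 0.546% to 0.590%.

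Other mitochondrial pathways were taken from lists of textbook members. Of 17 enzymes of the citric acid cycle and pyruvate dehydrogenase, 14 rose at 48 h and 12 at 96 h, with medians of 0.51 and 0.36, and none passed as lower. Among them were MDH2 (log2 fold change 0.91 at 48 h), citrate synthase CS (0.78) and FH (0.66), and at 96 h IDH2 (0.96). Of 14 outer membrane channels and import proteins, 9 rose at 48 h and 4 at 96 h, with VDAC1 (0.83), TIMM17A (0.63) and TIMM23 (0.62) the smallest p-values at 48 h. Of 15 regulators of mitochondrial biogenesis, 3 rose at 48 h and none passed at 96 h in edgeR. At an unadjusted p under 0.05, 3 were higher and 1 lower at 96 h, beside 4859 and 4284 of all 26813 loci. The 3 that rose at 48 h were ESRRA, a nuclear receptor that acts on respiratory genes (0.64), the coactivator PPRC1 (0.62) and the DNA polymerase POLG (0.33). The transcription factors NRF1 (0.053) and GABPA (-0.16), the coactivator PPARGC1A (-0.28) and TFAM, which packages mitochondrial DNA (0.095), did not pass at 48 h.

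Most members are short genes. Their exonic length had a median of 1001 nucleotides (345 to 13796), beside 4400 for 13931 other protein-coding loci with a mean count of at least 50, and 40 of the 80 members were shorter than 1000 nucleotides beside 4.07% of those loci. Short loci as a whole also read higher in the treated libraries. A smooth trend was fitted for each library over loci with a mean count of at least 50. At a length of 400 nucleotides the trend stood at -0.198 to -0.149 on the log2 scale in vehicle and at 0.089 to 0.132 at 48 h. At 96 h it stood at -0.105 (TP16), 0.052 (TP18), 0.159 (TP15) and 0.190 (TP17). Under 600 nucleotides, other loci had a median log2 fold change of 0.35 at 48 h with 32.7% called higher, and the 17 members of that length had 0.72 with 16 called. From 600 to 1000 nucleotides other loci had 0.36 with 32.1% called, and 23 members had 0.69 with 22 called. From 1000 to 2000 nucleotides other loci had 0.30 with 31.1% called, and 25 members had 0.51 with 16 called. Longer members were closer to loci of their length, at 0.31 beside 0.15 from 2000 to 4000 nucleotides (10 members), and at 0.13 beside -0.0063 above that (5 members). With the trend of each library removed, 40 of the 80 genes were called higher at 48 h and none lower, with a median of 0.37 beside -0.10 for all loci. At 96 h this left 24 higher and 1 lower, with a median of 0.20 beside -0.053. Why short loci differed between the libraries was not tested.

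**Figure D4:**
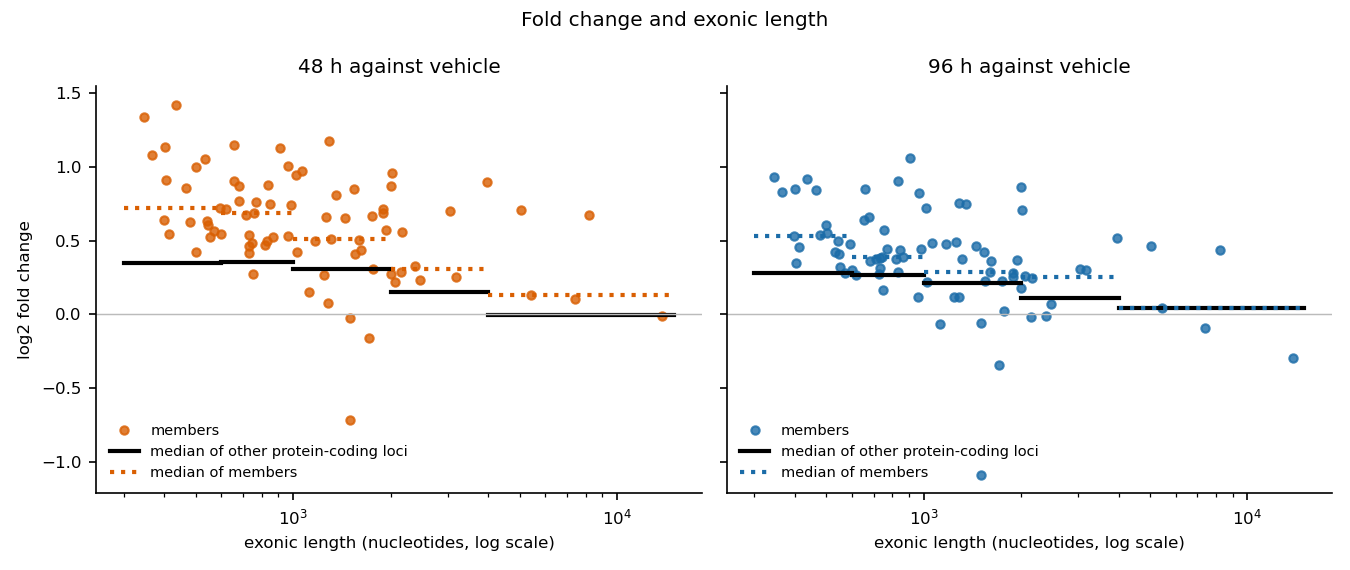
The log2 fold change against vehicle (y axis) of each of the 80 genes by exonic length (x axis, nucleotides, log scale), at 48 h (orange) and 96 h (blue), with dotted lines at the members' median and black lines at the median of other protein-coding loci in each of 5 length classes. The members' median lies above that of other loci in every class at 48 h, and in all but the longest at 96 h, while single members lie on both sides.

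The members with a placed locus are spread over 20 chromosomes, with 10 on chromosome 19, 7 each on chromosomes 3 and 14, and 6 each on chromosomes 1, 6 and 11. All 10 on chromosome 19 and all 3 on the X chromosome (NDUFA1, NDUFB11 and COX7B) rose at 48 h. So did all 6 on chromosome 1, all 4 on chromosome 20 and, in total, 60 of the 80 genes. On chromosomes 3 and 14 it was 4 of 7 and 6 of 7, and on chromosomes 6 and 11 it was 3 of 6 and 4 of 6. A difference between chromosomes was not tested. The share of all loci called was not counted by chromosome. NDUFV2, the iron-sulfur subunit of the NADH-oxidising tip, is represented here by a single exon on chromosome 11 (97236080 to 97236927). Its reference gene lies on chromosome 18, so the locus from which its reads came is uncertain (0.75 ± 0.12 at adjusted p = 0.00396 at 48 h). NDUFS5 has a copy with counts equal to 14.3% of its own, and the other copies found held 0.929% to 7.24% of their parent genes, apart from those of NDUFA3, NDUFA4, SDHA, SDHD and COX7A2L.

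Markers of testicular cell types moved with the treatment as well, and their part in the differences of the respiratory chain genes was not tested. The summed level of 5 Leydig cell markers was 164 to 314 CPM in vehicle, 1525 to 1889.7 CPM at 48 h and 1132 to 1425 CPM at 96 h. Of the 5, 4 rose at both times, while LHCGR did not pass. STAR, which delivers cholesterol to mitochondria, had a log2 fold change of 4.28 at 48 h and 3.86 at 96 h, and CYP17A1 had 3.49 and 3.33. The 15 germ cell markers summed to 843 to 1034 CPM in vehicle, 550.2 to 737 CPM at 48 h and 424 to 683 CPM at 96 h, and 2 fell at 48 h and 11 at 96 h. For 9 Sertoli cell markers the sums were 1329 to 1777.5, 1298.5 to 1602.5 and 1279 to 1615 CPM, and 2 rose at 48 h and 3 at 96 h. The 6 peritubular and smooth muscle markers summed to 563 to 633, 911 to 1236 and 793 to 1521 CPM, with 3 and 4 higher. The 8 macrophage markers summed to 90.5 to 198, 155 to 251 and 191 to 375 CPM, with 3 higher at 96 h, and 5 endothelial markers to 56.2 to 87.0, 57.3 to 123 and 49.0 to 109 CPM. The 6 markers of dividing cells summed to 215 to 349, 295 to 495 and 937 to 1145 CPM, and all 6 rose at 96 h. Skeletal muscle markers, which would show carried-over muscle, summed to 13.1 to 16.8, 7.83 to 11.5 and 10.998 to 16.9 CPM, and 1 of 4, CKM, fell at both times. No marker read here was at 0 in any library. Planned markers without a locus of their own symbol, such as CYP11A1, had been left out. The table itself holds only loci that reached 1 CPM in at least 3 libraries.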

How the data were processed

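Total RNA from 10 testes, 1 per animal, had been sequenced and reduced to read counts per locus by the authors, and those deposited whole-number counts were used here. Per the submitters' processing notes, HTSeq 0.6.1p1, edgeR and cutadapt 1.9.1 were used, together with Cufflinks 2.2.1, Bowtie2 2.2.8 and TopHat2 2.1.1 on genome build rheMac8. Their settings, and how reads that match several loci were treated, are not given in the sources used here. Gene models and coordinates are from the deposited merged transcript models. Log2 fold changes and adjusted p-values of the authors' own comparisons are in the same deposited table and are quoted here as counts of calls in 1 sentence for each comparison. Every locus in the table reached 1 CPM in at least 3 libraries, so loci below that level were not analysed here, and no further filter was applied.

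Counts of all 26813 loci and all 10 libraries were fitted in R 4.3.3 with edgeR 4.0.16 (TMM scaling, 1 mean per group, quasi-likelihood test), and p-values were adjusted by the Benjamini-Hochberg method over all loci. The biological coefficient of variation was 0.259. Chromosome accessions were translated to names by the reference chromosome of the symbols on them, of which at least 97.5% pointed to 1 chromosome. Groups share no animal numbers and the labels give no pairing, so samples were not paired. Alternatives were RLE and upper-quartile scaling, a mean count filter of 50, DESeq2 1.42.0, the exact test, limma 3.58.1 voom, a fit of only the groups compared, age terms, leaving out animals, summing loci of a symbol, an adjusted p of 0.01 and, added after the data were seen, removal of each library's trend over exonic length (lowess span 0.3). Tables and figures were made with Python 3.11.15, pandas 2.3.3, numpy 2.4.6 and matplotlib 3.10.9.

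The members, lists and tests were chosen with earlier results of these data known. Values in every library are given for up to 4 members per complex with the smallest p, members called against the direction of their complex, all SDH subunits, the paralogue sets and all members called between 96 h and 48 h. NDUFA1, NDUFA3, ATP5J2, ATP5E, ATP5S, UQCR and COX6C were named after their values were seen. Promoter and protein sequences were not used here. The fit was tested on simulated counts.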

Additional observations from a re-analysis of the deposited data

Results flagged for a closer look

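In 96 h animal TP16, ATP5G2 stood at 88.1 CPM, apart from 106 to 109 CPM in the other animals of its group. It was the one such case among 40 sets of 4 animals examined (the 96 h values of single named genes), and chance marks about 1 in 20 sets. The difference between the treatment times itself passed edgeR's quasi-likelihood test in 5 genes, with log2 fold changes at 96 h against 48 h of -0.63 for NDUFS6, -0.49 for NDUFS7, -0.45 for NDUFB4, -0.44 for ATP5B and -0.42 for NDUFB11. In all 5 the 4 animals at 96 h were below the 3 animals at 48 h. This adds no support, since the 5 were called on the same values.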

How the results depend on the processing

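Of the 60 genes called at 48 h, 33 were called in all 23 alternatives, and of the 47 at 96 h, 20 were, but none of the 5 at 96 h against 48 h. The 48 h count was 37 without the animals over 20 months old and lay between 49 and 60 with 1 animal left out. The 96 h count was 27 with upper-quartile scaling, 25 with the exonic length correction (chosen after seeing the data), 24 at an adjusted p of 0.01, and 28 to 50 with 1 animal left out, the lowest being 28 without TP09 and 29 without TP11. The count at 96 h against 48 h was 16 with DESeq2, 9 with the exact test and 1 with only the groups compared. It was 0 with age class as a block, age as a covariate, the animals over 20 months left out, the length correction or an adjusted p of 0.01, where the fit of all 10 libraries had 34 at an unadjusted p under 0.05. It was 0 to 4 with 1 animal left out. Upper-quartile scaling moved the median over all loci to -0.197 (from -0.07, log2) at 48 h and to -0.160 (from -0.012) at 96 h. The medians of the 80 genes were then 0.504 and 0.229.

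Log2 fold changes that changed sign belonged to genes that did not pass in the report. COX4I2 was -0.052, -0.11 and -0.17 at 48 h with upper-quartile scaling, without animals over 20 months and with length correction, and -0.030 and -0.053 at 96 h with the first and last of these. COX7A2L was -0.10 at 48 h with length correction, and 0.021 and 0.026 at 96 h with age class as a block and without animals over 20 months. SDHA at 96 h was -0.078 with upper-quartile scaling and -0.0063 with length correction. ATP5G2 at 96 h was 0.079, 0.11 and 0.053 with age as a covariate, with age class blocked and without animals over 20 months. In the same order SDHD at 96 h was 0.050, 0.10 and 0.0034, and 0.32 with its loci summed. SDHD at 48 h was 0.0043 with RLE scaling, 0.0046 with DESeq2, 0.019 with only the groups compared and 0.38 with its loci summed. With 1 animal left out the ranges were -0.11 to 0.053 for ATP5G2 at 96 h, -0.095 to 0.36 and -0.051 to 0.41 for COX4I2 at 48 h and 96 h, -0.12 to 0.026 for COX7A2L at 96 h, and -0.14 to 0.14 and -0.14 to 0.024 for SDHD. The cause of these changes was not tested. No paired analysis was possible because the labels tie no animal to another and the groups share no replicate number. Age class, which matches vehicle to 48 h animals by age, was fitted as a block (60 genes called at 48 h and 35 at 96 h). With 3 or 4 animals per group the precision is limited, and 3 counts in the shallowest library equal 0.137 CPM.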
